A study of Mus musculus with 6 samples.

Results

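The SLAM family comprises the surface receptors encoded by Slamf1, Cd48, Ly9, Cd244a, Cd84, Slamf6, Slamf7, Slamf8 and Slamf9, and is described here with Sh2d1a, the gene of the adaptor SAP through which several of these receptors signal. These 10 genes, 9 receptors and 1 adaptor, were chosen by symbol in the GENCODE M21 annotation out of 55487 gene identifiers measured. They were followed in polyA RNA of CD45+ total hematopoietic cells, CD45 being a surface antigen that nearly all leukocytes carry. All libraries were of WT C57BL6/J mice and of freshly prepared cells, 3 from the mesenteric lymph node (mLN), which receives lymph from the gut, and 3 from the spleen. The labels give neither age nor sex. They also leave unsaid whether each library had its own animal, so the p-values here speak of the spread among these libraries alone, and that spread may be technical. Ptprc, the gene of CD45, averaged 2674.5 CPM in mLN and 2191 CPM in spleen. CPM are counts brought to a common library total with TMM factors.

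SLAM receptors are members of the immunoglobulin superfamily. Most of them bind a copy of themselves on a neighbouring cell, while CD48, which is held in the membrane by a lipid anchor and has no cytoplasmic tail, is the ligand of CD244 and in mice also of CD2. The cytoplasmic tails of most members carry tyrosines within a short motif, the immunoreceptor tyrosine-based switch motif (ITSM), that binds SAP or the related adaptor EAT-2 once phosphorylated. The family is known for its part in T-cell help to germinal-centre B cells, in the development of innate-like T cells and in the control of NK-cell killing, and loss of SAP causes X-linked lymphoproliferative disease in humans.

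The ITSM is shown because it divides the family. A search of the coding sequence of the principal transcript of each member, in frame, found the motif in 6 receptors within the last 40% of the coding sequence. The matches, from GENCODE M21 transcripts (build GRCm38), are given with the codons of threonine, tyrosine and the final valine or isoleucine in capitals.
Slamf1 motif 1 (chr1:171792339-171792356, plus strand): ACTattTATgcccaaGTA
Slamf1 motif 2 (chr1:171799588-171799605, plus strand): ACAgttTATgccagtGTG
Ly9 motif 1 (chr1:171593912-171593929, minus strand): ACTccaTATgataaaGTG
Ly9 motif 2 (chr1:171593438-171593455, minus strand): ACAatcTACtgctctGTG
Cd84 motif 1 (chr1:171884605-171884622, plus strand): ACAgtaTATgctgtaGTT
Cd84 motif 2 (chr1:171885601-171885618, plus strand): ACCattTATtcctcaGTG
Slamf6 motif 1 (chr1:171939437-171939454, plus strand): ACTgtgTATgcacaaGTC
Slamf6 motif 2 (chr1:171941664-171941681, plus strand): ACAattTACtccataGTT
Cd244a motif 1 (chr1:171577838-171577855, plus strand): ACAataTATgaatatGTC
Cd244a motif 2 (chr1:171579144-171579161, plus strand): ACCatgTACtctatgATA
Cd244a motif 3 (chr1:171580788-171580805, plus strand): ACAgtaTATtcagtaGTC
Cd244a motif 4 (chr1:171581685-171582806, plus strand): ACCgtgTACgaggagGTT
Slamf7 motif 1 (chr1:171636327-171636344, minus strand): ACAtttTATtccactGTG
Cd244a had 4 matches, of which the last spans an exon junction, and Slamf7 had 1. Single matches in Cd48 (tyrosine codon 107 of 240) and Slamf8 (tyrosine codon 116 of 278) lay in the first part of the coding sequence, ahead of any tail. Slamf9 and the adaptor Sh2d1a had none. Over 21759 protein-coding genes, 7.80% had at least 1 match and 0.593% had at least 2. A match is a description of the letters and no measure of binding.

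Within the genome, Cd244a, Ly9, Slamf7, Cd48, Slamf1, Cd84 and Slamf6 form a cluster of 393978 bases on chromosome 1 (171559193 to 171953170, GRCm38). Slamf9 (172475358 to 172478575) and Slamf8 (172581758 to 172590568) lie further along the same chromosome, with 522187 bases between the cluster and Slamf9. Sh2d1a lies on chromosome X (42502453 to 42529330). Ly9 lies on the minus strand within the span of Cd244a, but the exons of the pair shared 0 bases. Exons of Slamf7 shared 9.24% of their bases with Gm37787 on the opposite strand, and Slamf7 was the only member with counts that were not whole numbers. Sh2d1a shared 26.6% of its exon bases with Tenm1 on the opposite strand, which had at most 1 count in an mLN library and at most 2 in a spleen library. The kit was directional, but how strand was used in counting is not stated. Fractions of the Slamf7 and Gm37787 counts made up whole numbers in each library, as with 829.59 and 11.41 in mLN replicate 1. Some reads of this pair were thus shared out between opposite strands. Reads of the other opposite-strand pairs may likewise not have been told apart.

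The libraries held 12584244 to 18119551 expected counts. All 10 members were among the 14427 genes that passed the filter on low counts. In the test between tissues by edgeR's quasi-likelihood method, 4 members were called higher in mLN (Ly9, Cd84, Slamf6 and Sh2d1a), 3 lower (Cd244a, Slamf7 and Slamf9), and 3 were not called (Slamf1, Cd48 and Slamf8). A call means an adjusted p under 0.05. Of all genes tested 45.5% were called, 21.8% higher and 23.8% lower, so that a call was common in this comparison. The median log2 fold change of the 10 members was 0.10, and over all genes tested it was -0.00. Fold changes are mLN over spleen. Since these are bulk samples, fewer cells of a type and less RNA per cell cannot be told apart.

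**Figure D1:**
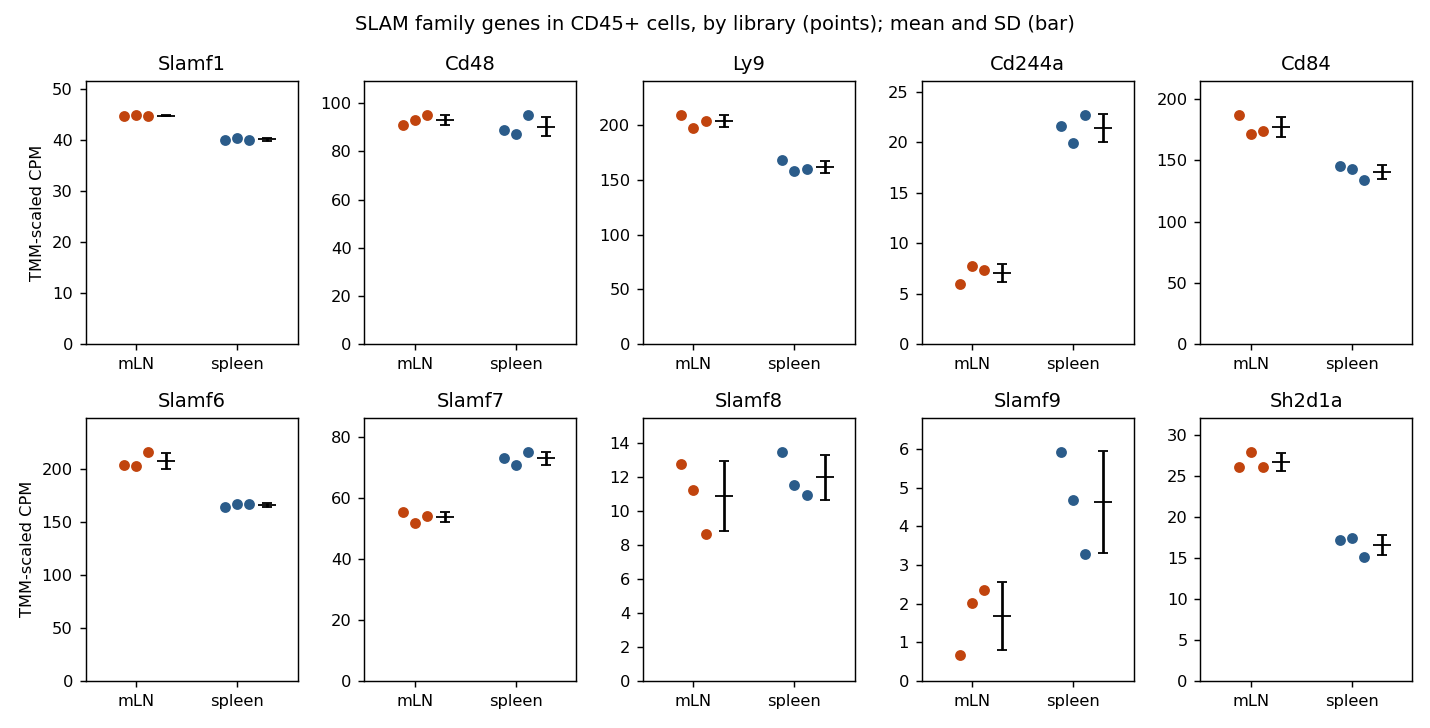
TMM-scaled CPM (vertical axis, from 0) of each of the 10 genes in 3 mLN and 3 spleen libraries (points), with the mean and SD beside them. For Ly9, Cd84, Slamf6, Slamf1 and Sh2d1a all mLN points lie above all spleen points, and for Cd244a, Slamf7 and Slamf9 all lie below.

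Among receptors with several ITSMs, 3 of the abundant ones rose by about the same amount. Slamf6, which encodes Ly108, a self-binding receptor of T, B and NK cells, stood at 204, 203 and 216 CPM in the mLN libraries and at 164, 167 and 167 CPM in the spleen libraries. All mLN libraries were above all spleen libraries, with a log2 fold change of 0.32 (SE 0.0359, adjusted p = 5.65e-10). Ly9, whose product CD229 is a self-binding receptor of T and B cells, stood at 209, 198 and 204 CPM in mLN and at 168, 158 and 159 CPM in spleen. The tissues did not overlap, and the log2 fold change was 0.33 (SE 0.0367, adjusted p = 4.56e-10). Cd84, the gene of a self-binding receptor found on B cells, T cells and myeloid cells, stood at 187, 171 and 174 CPM in mLN and at 145, 142 and 134 CPM in spleen. Its log2 fold change was 0.33 (SE 0.0400, adjusted p = 2.66e-09), again without overlap.

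Slamf1, which encodes CD150, a self-binding receptor of lymphocytes that is also used to mark blood stem cells, was not called. It stood at 44.7, 44.8 and 44.7 CPM in mLN and at 39.95, 40.39 and 39.99 CPM in spleen. The tissues did not overlap, as was so for 25.5% of all genes with mLN above and 27.5% with mLN below. The log2 fold change was 0.16 (95% interval 0.01 to 0.30, unadjusted p = 0.0315, adjusted p = 0.0662 by edgeR). Stem and progenitor genes were lower in mLN beside it, as the 4 tested of 5 all fell. The list summed to 6.07 to 8.47 CPM in mLN against 41.1 to 45.9 CPM in spleen. Most of the spleen sum was of Kit (26.7 CPM) and Gata2 (10.4 CPM), while Hlf stood at 1.17 CPM there. Mecom had no counts in mLN, but only 4, 2 and 2 counts in the spleen libraries. The part of stem and progenitor cells in the value of Slamf1 was not tested.

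CD244 and its ligand CD48 differed in the call: Cd244a fell and Cd48 was not called. Cd244a, the gene of a receptor of NK cells, some CD8 T cells and several myeloid cells, stood at 6.005, 7.76 and 7.37 CPM in mLN and at 21.6, 19.9 and 22.7 CPM in spleen. It fell by 1.5996 on the log2 scale (SE 0.132, adjusted p = 1.25e-13), which is 3.03-fold lower in mLN and the largest fitted fall among the 10 genes. Calls of at least 2-fold were made downward for 8.60% of all genes and upward for 3.67%. Cd48 stood at 91.0, 93.1 and 94.9 CPM in mLN and at 88.8, 87.2 and 94.9 CPM in spleen. Its tissues overlapped, and its log2 fold change of 0.04 had a 95% interval of -0.06 to 0.14 (adjusted p = 0.524), which leaves out changes of the size seen for Slamf6. In TPM, a level corrected for transcript length, Cd48 exceeded Cd244a by 35.6 ± 8.11 times in mLN and 12.2 ± 0.606 times in spleen (SD, n = 3 each). CD2, the other partner of CD48 in mice, had its gene at 234 ± 0.239 CPM in mLN and 179 ± 6.03 CPM in spleen (SD, n = 3 each). Cd2 rose by 0.38 on the log2 scale (adjusted p = 1.47e-12) and is also counted in the pan-T list.

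The marker lists of cells that can carry CD244 did not all move one way. The pan-T genes, of which some CD8 T cells carry CD244, all rose (14 of 14). Of 7 tested NK-cell genes of 8, 5 fell, Eomes rose and Klrd1, with a log2 fold change of -0.07, was not called. The list summed to 245 to 254 CPM in mLN and to 266 to 278 CPM in spleen, with no gene at 0 throughout a tissue. Most of this sum was of Eomes (133 CPM in mLN and 83.7 CPM in spleen) and Prf1 (67.8 CPM in mLN and 84.2 CPM in spleen). The log2 fold changes of the 5 genes that fell ranged from -1.61 (Gzma) to -0.31 (Prf1). Ncr1, an activating receptor gene of NK cells, stood at 6.61 ± 1.55 CPM in mLN and 12.8 ± 1.96 CPM in spleen (SD, n = 3 each). All 4 basophil and mast-cell genes fell, with a sum of 0.891 to 1.27 CPM in mLN and of 30.2 to 34.4 CPM in spleen, and Ms4a2 had no counts in mLN. All 5 neutrophil genes fell, with sums of 0.900 to 1.73 CPM in mLN and 838 to 855 CPM in spleen, and Ly6g at 0 in mLN. The part of these cells in the fall of Cd244a was not tested.

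Slamf7 encodes CRACC, a self-binding receptor of NK cells, plasma cells and activated lymphocytes that signals through EAT-2 rather than SAP. It stood at 55.4, 51.9 and 54.2 CPM in mLN and at 73.2, 70.8 and 75.1 CPM in spleen. All mLN libraries were below all spleen libraries, with a log2 fold change of -0.44 (SE 0.0603, adjusted p = 5.30e-08). Plasma-cell genes fell beside it in 5 of 6 cases, with sums of 326 to 335 CPM in mLN and 957 to 961 CPM in spleen and no gene at 0 throughout a tissue. Conventional dendritic-cell genes fell in 5 of 5 cases, with sums of 62.6 to 66.6 CPM in mLN and 135 to 141 CPM in spleen and none at 0. NK-cell genes were less uniform: of 7 tested, 5 fell, Eomes rose and Klrd1 was not called. Their sums were 245 to 254 CPM in mLN and 266 to 278 CPM in spleen. All 14 pan-T genes rose, while all 12 pan-B genes fell. The part of these cells in the value of Slamf7 was not tested.

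Slamf8 and Slamf9, the members outside the cluster, encode receptors with short tails that lack an ITSM and are expressed mainly by myeloid cells. Slamf8, known from mice for restraining the macrophage oxidase, stood at 12.7, 11.2 and 8.66 CPM in mLN and at 13.5, 11.5 and 10.9 CPM in spleen. The tissues overlapped, and the log2 fold change of -0.13 (95% interval -0.43 to 0.17, adjusted p = 0.509) was not called. Slamf9 was the least abundant member, with 10, 36 and 29 counts in mLN and 103, 77 and 55 counts in spleen. At 0.667, 2.02 and 2.35 CPM in mLN against 5.92, 4.69 and 3.29 CPM in spleen, the tissues did not overlap although libraries of a tissue differed widely. Slamf9 fell by 1.47 on the log2 scale (SE 0.334, 95% interval -2.15 to -0.79, adjusted p = 0.000381).

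Monocyte and macrophage genes fell or were not called beside Slamf8 and Slamf9, and plasmacytoid genes moved in both directions. Of 8 monocyte and macrophage genes 4 fell and 4 were not called, with sums of 649.6 to 655.7 CPM in mLN and 886 to 900.05 CPM in spleen and none at 0. Adgre1, which encodes the macrophage antigen F4/80, had a log2 fold change of -1.37 and C1qa, a complement gene of tissue macrophages, had 0.32 without a call (adjusted p = 0.0533). Of 5 plasmacytoid dendritic-cell genes 2 fell and 2 rose, with sums of 118 to 128 CPM in mLN and 82.8 to 93.3 CPM in spleen and none at 0. Siglech, which encodes a receptor of plasmacytoid cells, fell by 1.06, while Ccr9 and Pacsin1, which T cells also express, rose. The part of these cells in the values of Slamf8 and Slamf9 was not tested.

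Sh2d1a rose more than any receptor by fitted value. It stood at 26.2, 28.0 and 26.1 CPM in mLN and at 17.2, 17.4 and 15.1 CPM in spleen. All mLN libraries were above all spleen libraries, with a log2 fold change of 0.69 (SE 0.102, 95% interval 0.48 to 0.89, adjusted p = 2.61e-07). The related adaptor gene Sh2d1b1 (EAT-2, of NK and some myeloid cells) went the other way, at 1.27, 1.57 and 2.19 CPM in mLN and 5.57, 5.91 and 4.005 CPM in spleen (log2 fold change -1.64, adjusted p = 7.28e-06). The ratio of Sh2d1a to Sh2d1b1 in TPM was 53.2 ± 13.8 in mLN and 10.9 ± 1.68 in spleen (SD, n = 3 each). Sh2d1b2, a second EAT-2 gene of the mouse, had no counts in mLN and 0.0604 CPM in 1 spleen library, and was not tested.

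**Figure D2:**
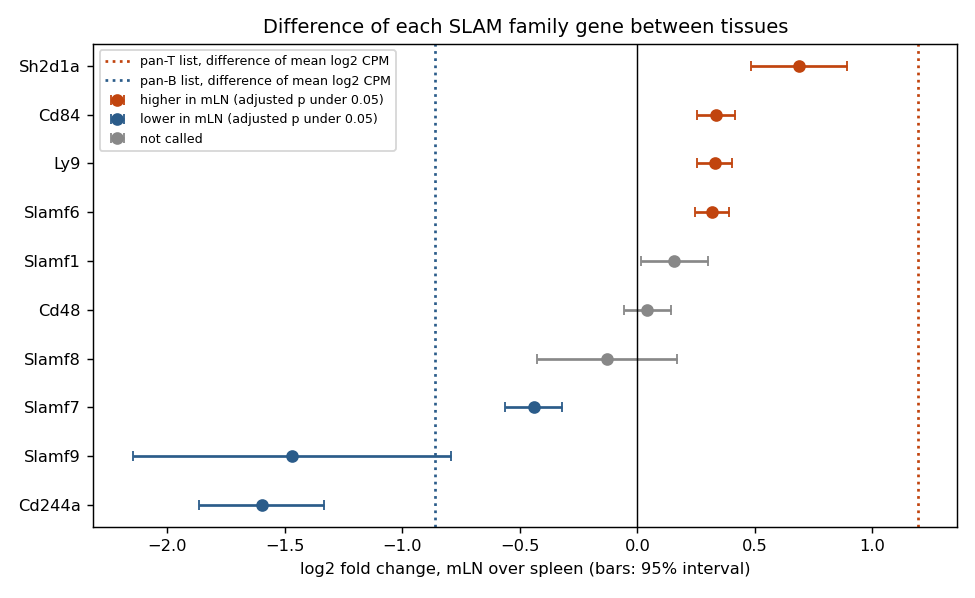
Log2 fold change of each gene, mLN over spleen (horizontal axis), with 95% intervals, and the differences of the pan-T list (1.20) and the pan-B list (-0.86) as dotted lines. Sh2d1a, Cd84, Ly9, Slamf6, Slamf1 and Cd48 lie between 0 and the pan-T line, Slamf8 and Slamf7 between 0 and the pan-B line, and Slamf9 and Cd244a beyond the pan-B line.

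The libraries differed in their balance of lymphocyte genes, so each member was also set against the main lineage lists. All 14 pan-T genes rose (sums of 4078 to 4127 CPM in mLN and 1790 to 1807 CPM in spleen) and all 12 pan-B genes fell (sums of 4171 to 4242 CPM in mLN and 7330 to 7458 CPM in spleen), with no gene of either list at 0 throughout a tissue. The mean log2 CPM of the pan-T list was 1.20 higher in mLN, and that of the pan-B list 0.86 lower. Relative to the pan-T list, all 10 members were lower in mLN than in spleen, without overlap of the libraries. This was largely set by the list's own rise, since a gene at the same level in both tissues would also be lower against it. These values are close to each member's fold change less that of the list, and so are no separate evidence. The share of all genes for which this held was not computed. The difference was smallest for Sh2d1a, at -3.14 ± 0.0649 in mLN and -2.63 ± 0.111 in spleen (SD, n = 3 each), a difference of -0.51. Ly9, Cd84 and Slamf6 had differences of -0.86, -0.86 and -0.88, and Cd244a had the largest, -2.79.

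Relative to the pan-B list, Sh2d1a was higher in mLN by 1.55, Cd84 and Ly9 by 1.19 each, Slamf6 by 1.18, Slamf1 by 1.02, Cd48 by 0.90, Slamf8 by 0.71 and Slamf7 by 0.42. As the pan-B list itself fell, a gene at the same level in both tissues would be higher in mLN against it. Cd244a was lower in mLN by 0.73 also against this list. Slamf9 had a difference of -0.66 with overlapping libraries, which was -0.15 without mLN replicate 1, -0.96 without mLN replicate 3 and -0.33 on the log2(TPM + 1) scale. Of the 20 comparisons, 19 reached an exact two-sided permutation p of 0.1 (adjusted p = 0.105), the smallest that 3 libraries against 3 allow, and Slamf9 against the pan-B list had p = 0.4 by the same permutation test. None could therefore pass the threshold.

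**Figure D3:**
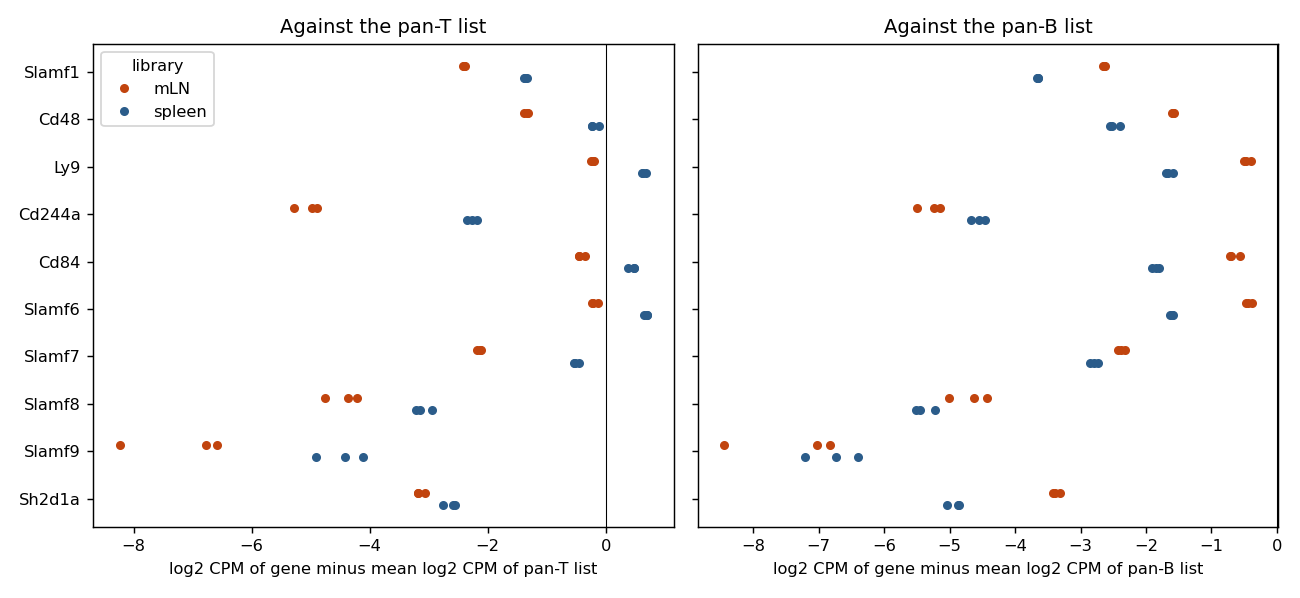
Log2 CPM of each gene minus the mean log2 CPM of the pan-T list (left) and the pan-B list (right), 1 point per library, with mLN above spleen in each row. Every gene lies further left in mLN against the pan-T list, and every gene but Cd244a and Slamf9 lies further right in mLN against the pan-B list.

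Levels of different receptors were compared per length, in TPM. In mLN the order by mean TPM was Cd48 (138 ± 2.98), Ly9 (132 ± 4.73), Slamf6 (131 ± 9.89), Cd84 (98.3 ± 6.23), Slamf7 (30.9 ± 1.64), Slamf1 (24.2 ± 0.101), Slamf8 (10.9 ± 2.08), Cd244a (4.03 ± 1.03) and Slamf9 (2.20 ± 1.17) (SD, n = 3 each). The ranges of Cd48 and Ly9, and of Ly9 and Slamf6, overlapped, while other neighbours in the mLN order were separate in range. In spleen the order was the same, with Cd48 at 139 ± 6.29, Ly9 at 109 ± 4.17, Slamf6 at 102 ± 8.69, Cd84 at 81.2 ± 2.58, Slamf7 at 42.9 ± 1.27, Slamf1 at 22.8 ± 0.335, Slamf8 at 12.5 ± 1.36, Cd244a at 11.4 ± 0.707 and Slamf9 at 6.30 ± 1.80 TPM (SD, n = 3 each). There the ranges of Ly9 and Slamf6 and of Slamf8 and Cd244a overlapped.

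The 9 receptors summed to 568, 579 and 568 TPM in mLN and to 529, 516 and 535 TPM in spleen. Cd48, Ly9, Slamf6 and Cd84 together made up 87.4 ± 0.546% of this sum in mLN and 81.8 ± 0.888% in spleen (SD, n = 3 each). Within these 4, the shares of Ly9, Slamf6 and Cd84 were higher in every mLN library. That of Cd48 was lower, at 24.2 ± 0.590% in mLN and 26.4 ± 0.780% in spleen without overlap. A share depends on the other receptors too, and the sum was higher in mLN. The TPM of Cd48 itself overlapped between tissues, at 138 ± 2.98 in mLN and 139 ± 6.29 in spleen. Slamf7 gave 5.40 ± 0.255% in mLN and 8.16 ± 0.291% in spleen, and Cd244a gave 0.704 ± 0.172% in mLN and 2.16 ± 0.101% in spleen. The share of Slamf1 was 4.276%, 4.175% and 4.241% in mLN and 4.27%, 4.371% and 4.324% in spleen, with overlap. Slamf6 exceeded Slamf7 by 4.26 ± 0.480 times in mLN and 2.38 ± 0.269 times in spleen.

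**Figure D4:**
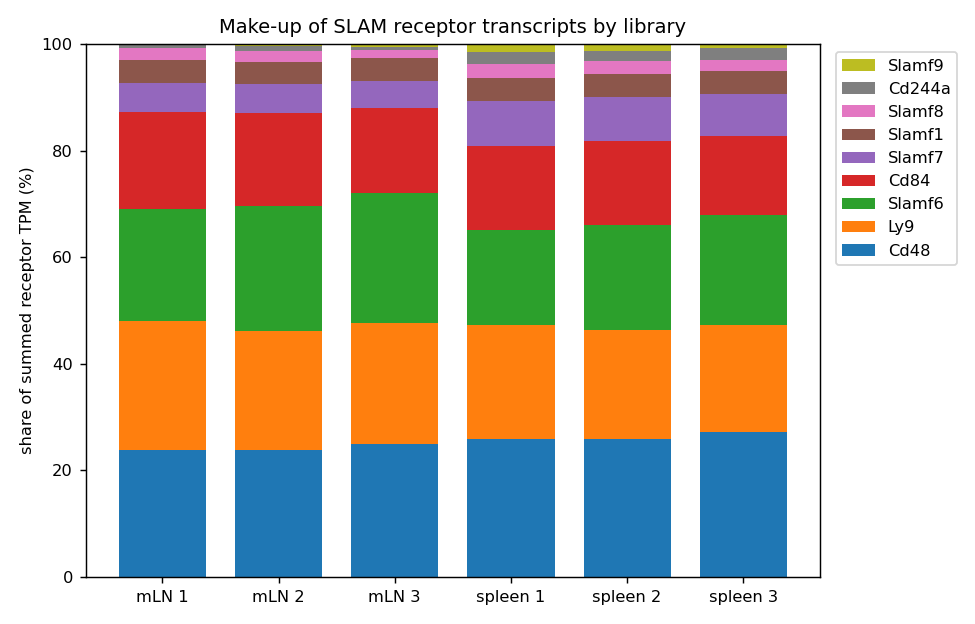
Share of each receptor in the summed TPM of the 9 receptors (vertical axis, percent), 1 bar per library. A share depends on the levels of all 9 receptors. The lower 4 segments (Cd48, Ly9, Slamf6 and Cd84) reach 87.0% to 88.0% in mLN and 80.9% to 82.7% in spleen, and the segments of Cd48, Slamf7, Cd244a and Slamf9 are wider in spleen.

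The mean length of a gene's transcripts, weighted by their estimated abundance, gave a second readout that does not use the gene's level. No member was called different in it between tissues by limma (9 tested, adjusted p from 0.821 to 1). Slamf9, with a single transcript, had nothing to test. The SE of the log2 difference reached 0.138, for Cd244a, so the lack of a call does not show equal lengths. Of 11322 genes tested, 0.0353% were called, 0.0177% longer and 0.0177% shorter in mLN, and 793 had an unadjusted p under 0.05. For 7 of these 9 members the libraries of the tissues overlapped in length. The share of all genes without such overlap was not computed, so the other members cannot be read against it. Cd48 was shorter in every mLN library, at 1182.4, 1184.3 and 1181.4 bases in mLN and 1185.5, 1184.8 and 1186 bases in spleen (unadjusted p = 0.77). Sh2d1a was longer in every mLN library and had the smallest p of the family, at 961, 938 and 949 bases in mLN and 938, 925 and 905 bases in spleen (unadjusted p = 0.143). Members with exactly 2 annotated transcripts allow the share of each to be solved from this length. Slamf1-202, a transcript of Slamf1 that keeps an intron, made up 9.88%, 10.8% and 10.8% of Slamf1 abundance in mLN and 8.45%, 10.5% and 5.53% in spleen, so that the tissues overlapped. Cd48-201, a shorter transcript of Cd48, made up 1.36%, 0.63% and 1.74% in mLN and 0.20%, 0.45% and 0.00% in spleen. Slamf8-202, which keeps an intron, made up 2.40%, 6.27% and 2.14% of Slamf8 in mLN and 5.37%, 10.2% and 4.37% in spleen.

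Genes that act with the family moved in both directions. Of 23 partner genes listed, 22 were tested, 9 were called higher in mLN, 10 lower and 3 not called (median log2 fold change 0.06), where 21.8% and 23.8% of all genes were called higher and lower. With the effective-length offset 8 were called higher and 7 lower, and without spleen replicate 1 the counts were 8 and 8. Fyn, the kinase that SAP brings to the receptors, stood at 391, 389 and 391 CPM in mLN and at 263, 265 and 259 CPM in spleen (log2 fold change 0.58, adjusted p = 5.44e-20). The kinase gene Prkcq, which acts downstream of SAP and Fyn in T cells, had a log2 fold change of 1.48, and Plcg1, the phospholipase of T-cell receptor signalling, had 1.05. Dok2, an adaptor gene, had 0.47. Plcg2, the phospholipase gene of B and myeloid cells, went the other way at 213, 214 and 216 CPM in mLN and 354, 349 and 344 CPM in spleen (log2 fold change -0.70, adjusted p = 2.71e-22).

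The 3 phosphatase genes whose products bind an ITSM in the absence of SAP fell by little, and for 2 of them the call depended on the setting. Inpp5d (SHIP-1) changed by -0.18 on the log2 scale (adjusted p = 1.72e-05), Ptpn6 (SHP-1) of -0.14 (adjusted p = 1.68e-05) and Ptpn11 (SHP-2) of -0.11 (adjusted p = 0.0162) by edgeR. With the effective-length offset Inpp5d (adjusted p = 0.0685) and Ptpn11 (adjusted p = 0.106) were not called. Ptpn11 also lost its call without mLN replicate 2 (adjusted p = 0.118) and without spleen replicate 1 (adjusted p = 0.08). Among genes of the phagosome complex that CD150 joins in mouse macrophages, Cybb, the catalytic oxidase subunit, fell to 232 ± 8.13 CPM in mLN, against 426 ± 7.68 CPM in spleen (SD, n = 3 each; log2 fold change -0.88). Pik3r4 had a log2 fold change of -0.40. Uvrag had -0.23, but 0.10 without a call with the effective-length offset (adjusted p = 0.526), while Becn1 (0.04) and Pik3c3 (0.08) were not called.

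**Figure D5:**
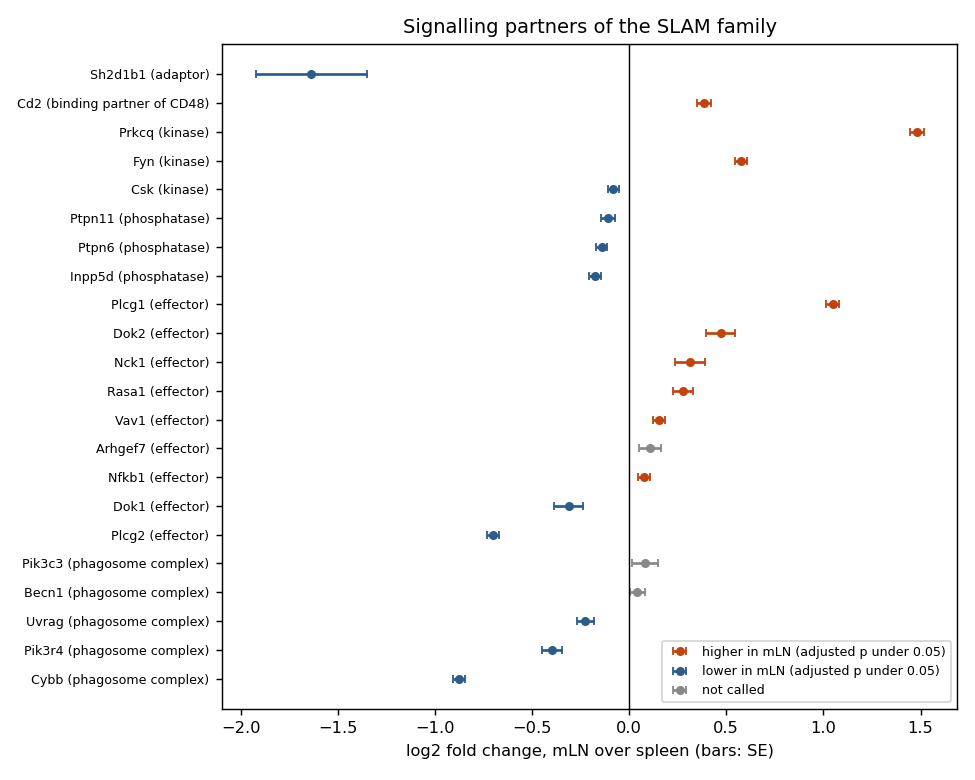
Log2 fold change of the 22 tested partner genes, mLN over spleen (horizontal axis), with SE, grouped by role. Prkcq (1.48) and Plcg1 (1.05) lie furthest to the right and Sh2d1b1 (-1.64) furthest to the left.

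Genes in and beside the cluster were read in the same test. Of the 12 other genes within the cluster 4 were tested, and 1 was called, Gm10521, at 20.8 ± 4.01 CPM in mLN and 17.3 ± 0.466 CPM in spleen (SD, n = 3 each; log2 fold change 0.28, adjusted p = 0.0471), with overlapping libraries. On the side of Cd244a, F11r and Alyref2 were not called and Itln1 had no counts. On the side of Slamf6, Vangl2, a planar-polarity gene, fell by 0.45 on the log2 scale (adjusted p = 0.00906), Ncstn, a gamma-secretase subunit gene, was at -0.00 (adjusted p = 0.969), and Nhlh1 had no counts.

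The promoters of 3 members are shown because Cd84 and Slamf6 rose by like amounts while Cd244a fell most. The sequences are from RefSeq (GRCm38.p6), which had a promoter for 8 of the 10 members. Each covers the gene's start site as RefSeq places it. The Slamf6 window ends just before the GENCODE M21 start of that gene, 171917515. Capitals mark GGAA, the core bound by ETS factors, on either strand (TTCC as printed).
Cd84 promoter (chr1:171839447-171839746, plus strand): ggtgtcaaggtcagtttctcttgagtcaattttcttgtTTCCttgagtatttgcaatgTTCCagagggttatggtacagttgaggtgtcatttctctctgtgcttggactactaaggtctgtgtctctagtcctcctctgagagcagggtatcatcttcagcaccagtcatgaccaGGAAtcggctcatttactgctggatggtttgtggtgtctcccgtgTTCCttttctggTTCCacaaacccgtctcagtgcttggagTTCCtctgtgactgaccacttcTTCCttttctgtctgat
Slamf6 promoter (chr1:171917212-171917511, plus strand): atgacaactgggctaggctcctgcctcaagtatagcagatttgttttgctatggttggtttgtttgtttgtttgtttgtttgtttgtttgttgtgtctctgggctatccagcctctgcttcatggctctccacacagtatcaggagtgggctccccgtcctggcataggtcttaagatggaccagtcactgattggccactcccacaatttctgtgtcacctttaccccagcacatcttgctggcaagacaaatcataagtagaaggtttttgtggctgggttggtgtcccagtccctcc
Cd244a promoter (chr1:171558943-171559242, plus strand): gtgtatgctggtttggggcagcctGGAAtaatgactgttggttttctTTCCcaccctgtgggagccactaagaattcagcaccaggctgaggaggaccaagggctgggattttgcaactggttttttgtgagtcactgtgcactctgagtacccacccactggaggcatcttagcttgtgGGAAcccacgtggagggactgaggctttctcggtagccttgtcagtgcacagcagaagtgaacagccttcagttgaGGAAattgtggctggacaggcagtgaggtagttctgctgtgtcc
GGAA occurred 7 times in the Cd84 promoter, 0 times in that of Slamf6 and 4 times in that of Cd244a. Of 32851 promoters of the same length 96.0% held at least 1, with a median of 3.0. TGTGGT, the core bound by RUNX factors, occurred once in the Cd84 promoter and in neither of the others, and 16.8% of promoters held it on either strand. CANNTG, the E-box, which reads alike on both strands and was counted once, occurred 1, 1 and 3 times in the promoters of Cd84, Slamf6 and Cd244a, and 72.3% of promoters held it. These matches are a description of the letters in these windows.

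For each member, the protein-coding gene nearest in profile was found by the Euclidean distance between log2 CPM values centred over the 6 libraries, among 8967 genes of at least 10 CPM. With only 2 tissues, this distance mostly reflects the difference between tissues. The nearest genes were Tgoln1 for Slamf6 (distance 0.0189), Ndufb3 for Ly9 (0.0467), Id3 for Cd84 (0.0595), Glipr2 for Sh2d1a (0.0320), Eif4b for Slamf1 (0.0276) and Pigm for Cd48 (0.0272). Those of the other members were Chil1 for Slamf7 (0.0471), Crocc for Slamf8 (0.0796), Ccnb1 for Cd244a (0.152) and Fignl1 for Slamf9 (1.04).

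Of the remaining marker lists, all 3 erythroid genes fell, with sums of 0.648 to 0.964 CPM in mLN and 321 to 329.8 CPM in spleen and none at 0 throughout a tissue. Both tested megakaryocyte genes of 4 fell (1.13 to 2.51 CPM in mLN and 11.2 to 12.1 CPM in spleen), with Gp9 and Ppbp at 0 in mLN. Genes listed for stromal and other cells that lack CD45 summed to 6.005 to 6.81 CPM in mLN and 7.19 to 11.1 CPM in spleen. Of these genes 1 of 3 tested was called lower, and Pdpn was at 0 in both tissues. Most of the sum was of Epcam, an epithelial gene, at 4.71 CPM in mLN and 6.08 CPM in spleen.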

How the data were processed

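PolyA RNA of CD45+ cells was measured in 6 libraries, 3 of mLN and 3 of spleen as their labels name them, made with a directional kit per the labels' protocols. Per the submitters' processing notes, STAR, RSEM and the build mm10 were used. Their versions, the annotation and the use of strand were not stated in the labels or files. The authors deposited a gene table per library with an expected count (an estimate that shares out ambiguous reads), TPM (a length-corrected abundance) and a transcript length and effective length in bases. Expected counts were rounded. Genes were kept by filterByExpr and scaled with TMM, and tissue was tested with edgeR 4.0.16 (quasi-likelihood, robust) in R 4.3.3, with Benjamini-Hochberg adjustment over 14427 genes. The common dispersion fitted by edgeR over all genes gave a coefficient of variation of 0.055 beyond counting noise. Squared differences between libraries of a tissue were 2.48 to 2.97 times those of counting noise (median over genes), and all libraries were kept. Standard errors come from the F statistic and intervals are 95%. Transcript length was tested on the log2 scale with limma 3.58.1. Lineage comparisons used log2 CPM (prior count 2) and exact permutation over all 20 assignments. Symbols and coordinates are from GENCODE M21 (GRCm38, which is mm10). It holds 141374 of the 142699 transcripts listed, and 33993 of 34056 single-transcript genes had the same length there within 0.01 bases.

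The members and gene lists were chosen with earlier results of these data known. Named were all members, Sh2d1b1, Sh2d1b2, Fyn, Cd2 and up to 4 called partners with the largest rise and fall, tested genes of the cluster called and 3 coding genes on each side, the nearest profile of each member, and up to 2 genes per marker list. Further phosphatase, phagosome and marker genes were named after their values were seen. Of the marker lists, 2 genes are not reported here and were left out of the sums and counts. The scripts were tested on simulated data. Alternatives were DESeq2 1.42.0, limma-voom, other scalings and filters, an effective-length offset, a replicate block and leaving out each library.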

Additional observations from a re-analysis of the deposited data

How the results depend on the processing

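All 4 rises and all 3 falls among the members were called under each alternative that kept the gene, while Slamf9 did not pass a filter of 5 CPM in 3 libraries, which left 2 members lower. Of 139 recomputed log2 fold changes 137 kept their direction and side of the threshold. Those of uncalled members reversed, Cd48 to -0.0073 with total-count scaling and Slamf8 to 0.0018 without mLN replicate 3 (range without each library -0.2505 to 0.0018). Slamf1 missed the threshold under every alternative (adjusted p from 0.0534 to 0.236). Without each library in turn, Slamf9 ranged from -1.74 to -1.09 and its highest adjusted p under any alternative was 0.0217. The counts of genes with a longer or shorter mean transcript were 1 and 1 with the stricter filter and 0 and 0 with the replicate block; without each library they ranged from 0 to 1 longer and were 0 shorter. Total-count scaling shifted the median of all genes by -0.05. All 160 recomputed lineage comparisons kept their direction, which the shifts of the lists themselves largely set. Slamf9 against the pan-B list ranged from -0.96 to -0.15. Partners called higher numbered 8 to 9 and lower 7 to 10 over the alternatives. Csk and Nfkb1 lost their calls under several of them, and Sh2d1b1 did not pass the stricter filter. The labels do not say whether replicate numbers pair libraries of the 2 tissues. Deviations from the tissue mean, over all genes tested, had correlations of 0.027, 0.028 and -0.008 between libraries of the same number. Such values cannot exclude a shared animal, since noise of weakly expressed genes weighs in them. With the replicate block 4 members were higher and 3 lower. The low counts of Slamf9, 10 in 1 mLN library, limit its precision.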
